A study of Mus musculus with 21 samples.

Results

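The clustered histone genes are the genes whose symbols begin with Hist1h, Hist2h, Hist3h or Hist4h in the deposited tables. They were found by that pattern alone, which gave 61 of the 21441 rows. By class these were 6 genes of linker histone H1, 15 of H2A, 17 of H2B, 11 of H3 and 12 of H4. A total of 50 lie in the Hist1 cluster on chromosome 13, 8 in Hist2 on chromosome 3, 2 in Hist3 on chromosome 11 and 1, Hist4h4, on chromosome 6.

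RNA was sequenced from the colon and ileum of C57BL6J mice with different forms of VDR, the vitamin D receptor, through which the hormone 1,25-dihydroxyvitamin D3 (1,25D3) acts on genes. The tissue label of all 21 samples is intestinal epithelium. Treated mice carried the CDX2-VDR transgene, which places human VDR in the distal intestine of mice without their own receptor, and received 3 injections of 1,25D3 at 1 ng per g of body weight, 48, 24 and 6 h before the end (3 colon and 3 ileum samples, males of 9 weeks). Uninjected mice carried the same transgene and got no 1,25D3 (4 colon and 3 ileum samples, of 9 or 10 weeks; 3 colon and 2 ileum samples are labelled female). KO mice, labelled Villin-CreERT2 VDR f/f, lose VDR from the gut epithelium through Cre, under the villin promoter and inducible (4 samples of each tissue, males of 9 or 11 weeks). Transgene, route of VDR loss, Cre, sex, age and injection coincide with the groups in part and cannot be told apart. The labels name no animal, so p-values cover the spread among samples, which may be technical.

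Histones are the proteins around which DNA is wound. H2A, H2B, H3 and H4 make up the nucleosome core, and H1 binds the linker DNA between cores. Most clustered histone genes are transcribed in S phase, when new DNA is packaged, and their mRNAs end just after a short stem-loop that is bound by SLBP, in place of the poly(A) tail of other mRNAs. Some of them also make poly(A) mRNAs that end further downstream, a form known from cells that have stopped dividing. The libraries here were made from poly(A)-selected RNA, so a stem-loop mRNA without a tail is captured poorly and a value measures captured mRNA, not all mRNA of the gene. In bulk tissue, fewer cells with a transcript and less of it per cell cannot be told apart.

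The stem-loop was sought in the mm9 genome within 300 bases after the stop codon, as GGNNNTNTNNANNNCC (N is any base) on the coding strand only, with at least 5 of 6 stem pairs. It was found in 54 of the 61 genes, 21 to 58 bases after the stop codon (median 30), against 177 of 30724 other coding transcripts whose 3′ UTR is at least that long (0.576%). The following are shown because they are the most abundant genes and the variants of the loop. Capitals mark the stem-loop of 16 bases, and the coordinates are those of the capitals.
Hist1h2bc (chr13:23776516-23776531, + strand): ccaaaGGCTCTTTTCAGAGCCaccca
Hist1h1c (chr13:23831381-23831396, + strand): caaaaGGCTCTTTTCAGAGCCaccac
Hist1h2ap (chr13:21924898-21924913, - strand): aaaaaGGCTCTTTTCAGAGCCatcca
Hist1h3c (chr13:23836916-23836931, - strand): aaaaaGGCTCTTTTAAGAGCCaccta
Hist1h4h (chr13:23623327-23623342, + strand): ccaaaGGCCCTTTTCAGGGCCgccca
Hist2h2ac (chr3:96024341-96024356, - strand): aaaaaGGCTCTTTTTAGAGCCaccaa
The stem-loop shared by Hist1h2bc, Hist1h1c and Hist1h2ap was the commonest, in 33 genes. All 11 H4 genes with a stem-loop had a stem that opens with GGCCC or GGTCC, and all 43 such genes of the other classes had one that opens with GGCTC. Hist2h2ac alone had its form.

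Where the annotated transcript stops relative to the stem-loop divides the genes. In 43 genes it stopped within 200 bases of it (called short ends here), in 11 it ran on for over 200 bases (long ends: Hist1h1c, Hist1h1d, Hist1h2ac, Hist1h2ai, Hist1h2bc, Hist1h2be, Hist1h3d, Hist1h3e, Hist2h3c1, Hist2h4 and Hist3h2a), and in 7 no stem-loop was found (Hist1h2an, Hist1h2bp, Hist1h2br, Hist1h3g, Hist1h4a, Hist2h2bb and Hist2h2be). The polyadenylation signal AATAAA stood in the last 40 annotated bases of 5 of 11 genes with long ends (45.5%), 3 of 43 with short ends (7%) and 3 of 7 without a stem-loop (42.9%), against 51.3% of 43420 coding transcripts.

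The pair Hist2h2be and Hist2h2ac is transcribed in opposite directions from RefSeq starts with 191 bases between them, and its promoter is shown because Hist2h2be had the smallest p-value of all 61 genes. Hist2h2be spans chr3:96025044-96027661 (+ strand) and Hist2h2ac chr3:96024284-96024803 (- strand) in mm9. These spans come from another annotation than the RefSeq starts and lie further apart. The window below is the RefSeq promoter of Hist2h2ac in build GRCm38.p6, chr3:96220831-96221130 on the - strand, from 250 bases before to 50 after its start, and it reaches 59 bases past the start of Hist2h2be. Capitals mark 1 octamer, 3 CCAAT boxes and 1 TATAAA, on either strand. By the RefSeq starts the octamer lies among the 59 bases past the start of Hist2h2be, and the other marks lie between the 2 starts.
Hist2h2ac promoter: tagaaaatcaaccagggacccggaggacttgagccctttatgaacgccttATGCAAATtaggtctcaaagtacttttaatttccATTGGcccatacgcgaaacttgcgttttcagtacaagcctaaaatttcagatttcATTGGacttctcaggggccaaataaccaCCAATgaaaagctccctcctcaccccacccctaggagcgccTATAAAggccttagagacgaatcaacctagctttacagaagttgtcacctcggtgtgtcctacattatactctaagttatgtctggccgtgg
The octamer ATTTGCAT, known from H2B promoters, was in the windows of 7 of 14 H2A genes, 6 of 15 H2B genes and no H1, H3 or H4 gene, against 1.75% of all 27025 genes with a window. CCAAT was in the windows of all 6 H1, 14 H2A, 15 H2B and 9 H3 genes with one, but of 3 of 11 H4 genes, against 37.9% of all genes. TATAAA was in 32 of 55 histone windows, against 14.2% of all genes. These matches were sought on both strands and are a description of letters, not of binding.

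Depth recovered from the tables, in megareads (M), ran between 10.04 M reads (colon treated 2) and 41.37 M (colon uninjected 4) in the colon, and between 11.21 M (ileum uninjected 3) and 44.93 M (ileum KO 4) in the ileum. Summed over 6 epithelial markers, levels were between 3730 and 15200 FPKM (fragments counted per transcript length and library size) in every library, while 7 pancreatic acinar genes reached 90900 FPKM in colon uninjected 3, 29300 in colon KO 2 and 16400 in colon treated 4, against at most 635 elsewhere. Colon uninjected 3 is labelled female but had 12.1 FPKM of the Y-linked gene Ddx3y, which lies within the 11.8 to 17.2 FPKM of the KO males, while uninjected 1 and 2 had 0.0979 and 0.209 FPKM. Of these libraries labelled female, uninjected 2 had 5.91 FPKM of Xist, the RNA of the inactive X chromosome, but uninjected 1 had 0.0889 FPKM, near the 0.0446 to 0.126 FPKM of the KO males. In treated ileum, where all samples are labelled male, library 1 had 1.76 FPKM of Ddx3y, against 11.4 and 15.1 FPKM in libraries 2 and 4. Of the uninjected ileum samples 2 are labelled female. Libraries 1, 3 and 4 of that group had 0.0347, 2.32 and 8.98 FPKM of Ddx3y, against 10.5 to 12.7 FPKM in KO ileum. Their Xist was 0.0805, 0.101 and 0.053 FPKM, within the 0.0412 to 0.102 FPKM of KO ileum. Without ileum treated 1, Hist2h2be differed from KO by -0.80 in treated ileum on the log2 scale (adjusted p = 0.627 by limma). Without colon uninjected 1 or 3 it differed by -1.0 or -0.75 in uninjected colon (adjusted p = 0.846 and 0.628). Numbers of the treated libraries and of the uninjected ileum libraries are column numbers and name no sample.

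Many of these genes are near copies of each other, so reads of 1 gene can be counted for another. In 54 of 61 genes some stretches of 50 bases also occur in another annotated transcript, in 21 genes over 50% of them do, and the median was 43.2%. Hist1h2ap and Hist2h2aa2 share 100% with another gene (Hist1h2ao and Hist2h2aa1), so their values belong to an unknown mix of copies. Hist2h2be, Hist2h2bb, Hist1h1a, Hist1h1b, Hist1h1t, Hist3h2ba and Hist4h4 share none, and Hist1h1c shares 8.54%.

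Most clustered histone genes were low in these libraries and a few were very high. The median of the 61 mean levels was 3.86 FPKM in the colon, where 11 genes were over 10 FPKM and 9 under 1 FPKM, and 2.21 FPKM in the ileum, where 9 were over 10 FPKM and 13 under 1. In the colon the order began with the H2B gene Hist1h2bc at a mean of 454 FPKM, the H2A gene Hist1h2ap at 438 and the linker histone Hist1h1c at 216. Then came Hist3h2a at 33.9, the H4 gene Hist1h4h at 29.0, the H2A gene Hist2h2aa2 at 27.7 and the H4 gene Hist1h4i at 25.3 FPKM.

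The neighbours in this order overlapped widely. Colon libraries of Hist1h2ap spanned 0 to 1770 FPKM, with 2 of 11 at 0, so its place is not firm. Libraries of Hist3h2a spanned 22.6 to 70.9 FPKM, those of Hist1h4h 8.16 to 65.7 and those of Hist2h2aa2 12.8 to 59.1. Hist1h2bc spanned 292 to 621 and Hist1h1c 121 to 383 FPKM, so both of these genes with long ends were high in every colon library. In the ileum Hist1h2ap led with a mean of 485 FPKM, though its libraries spanned 0 to 1540 FPKM. Next were Hist1h2bc with 352, Hist1h1c with 94.6, Hist1h2ab with 24.5, Hist1h4i with 21.5 and Hist3h2a with 21.2. Of the H3 genes, Hist1h3c was the highest in both tissues, at 10.7 FPKM in the colon and 6.67 in the ileum. Hist1h2ba, the testis form of H2B, was listed at 0 in every library.

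**Figure D1:**
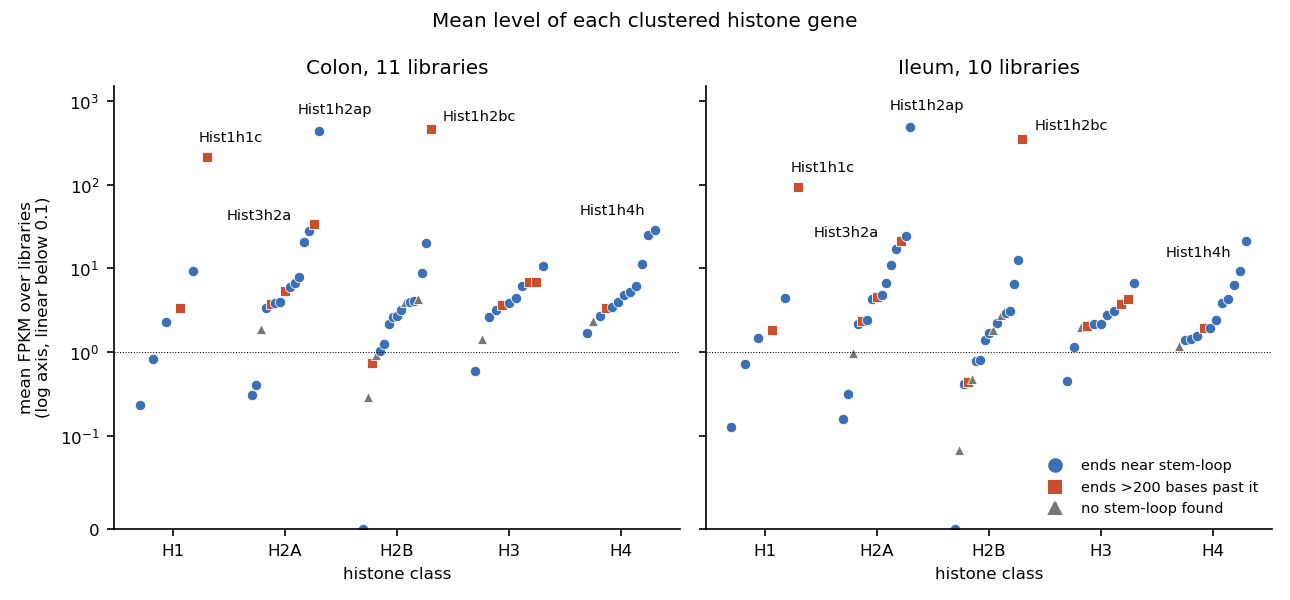
Mean level of each of the 61 genes in FPKM (log axis, linear below 0.1) by histone class over the 11 colon and 10 ileum libraries, after the tables of a tissue were put on 1 scale; colours give the annotated end and the dotted line marks 1 FPKM. Hist1h2bc, Hist1h2ap and Hist1h1c stand above all others in both tissues, and most genes lie between 1 and 10 FPKM.

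Levels of these genes spread more between libraries of 1 group than those of most genes did. The within-group SD on the log2(FPKM + 0.5) scale had a median of 1.11 over the histone genes in the table of colon treated and KO, against 0.32 over all genes tested, of 0.99 against 0.43 for colon uninjected and KO, and of 1.47 against 0.52 for colon treated and uninjected. In the ileum the medians were 0.81 against 0.44, 0.90 against 0.45 and 1.04 against 0.60 in the same order. The highest spread was that of Hist1h2ap, and among the steadiest was Hist2h2be, with 0.20 to 0.39 over the 6 tables. The spread was not compared at matched levels.

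A single library was the highest for most of the genes in several tables. Colon treated 2, the shallowest colon library, was the highest in 40 of the 50 genes tested against KO. Colon uninjected 3 was the highest in 38 of 51 against KO, and ileum uninjected 3 in 34 of 49. Ileum KO 3 was the highest in 26 of the 47 genes tested against treated ileum. At the other end, colon treated 4 was the lowest in 28 of 50 genes and ileum treated 4 in 28 of 47, both against KO, and colon uninjected 4 was the lowest in 17 of 51 and ileum uninjected 4 in 19 of 49.

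The libraries that were highest for most genes were compared by type of end. In colon treated 2 the median deviation from each gene's table median was 2.27 on the log2 scale over 35 genes with short ends and 0.88 over 10 with long ends. In colon uninjected 3 it was 2.30 over 36 and 0.74 over 10, and in ileum uninjected 3 it was 1.31 over 34 and 1.00 over 10. In ileum KO 3, beside treated ileum, it was 0.74 over 33 and 0.45 over 10. Among the libraries that were often lowest, it was -0.77 for short and -0.55 for long ends in colon treated 4, -0.98 and -0.74 in ileum treated 4, and -0.76 and -0.33 in colon uninjected 4. In ileum uninjected 4 the order was the other way, with -0.54 for short and -0.87 for long ends. The difference between the types of end was not tested. A list of 21 genes of S phase and cell division deviated by 0.83 in colon treated 2 and 1.38 in colon uninjected 3. In ileum uninjected 3 the list deviated by 0.41 and in ileum KO 3 by -0.01. The part of cell division, depth or acinar RNA in these libraries' histone levels was not tested.

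**Figure D2:**
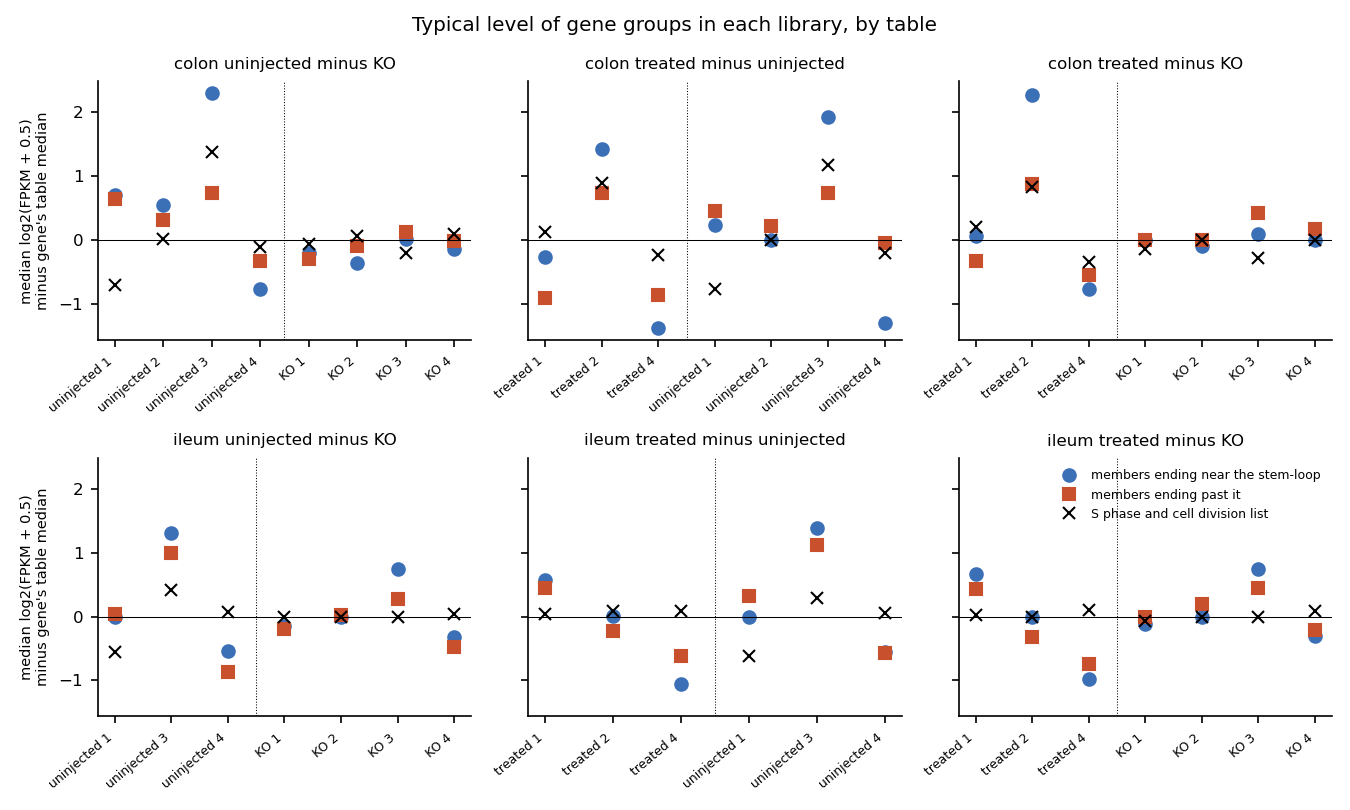
Median deviation of each library from the gene's table median, on the log2(FPKM + 0.5) scale, for histone genes whose annotated end is near the stem-loop (circles) or over 200 bases past it (squares) and for the S phase and cell division list (crosses), 1 panel per table, with the first-named group left of the dotted line. Colon treated 2, colon uninjected 3 and ileum uninjected 3 stand highest, with circles above squares.

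The linker histones Hist1h1e and Hist1h1c differ in annotated end and, in the colon, in the library where they were highest. Hist1h1e, a replication-dependent H1 with a short end, had 5.96, 5.02, 40.5 and 1.55 FPKM in colon uninjected libraries 1 to 4, against 2.66, 2.32, 3.48 and 2.96 FPKM in KO libraries 1 to 4. Hist1h1c, an H1 with a long end, had 360, 230, 124 and 171 FPKM in the same uninjected libraries, against 211, 206, 274 and 211 FPKM in KO. The uninjected library highest for Hist1h1e was thus the lowest for Hist1h1c, and the groups overlapped for both genes. Hist1h1d, an H1 that also has a long end, did not share the pattern of Hist1h1c. It had 3.67, 1.93, 7.23 and 1.91 FPKM in the uninjected libraries, against 1.95, 2.34, 2.87 and 4.97 FPKM in KO, and was highest in uninjected 3.

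In the ileum both genes were highest in the same library. Hist1h1e had 2.84, 14.2 and 1.28 FPKM in uninjected libraries 1, 3 and 4, against 2.89, 3.64, 7.13 and 1.38 FPKM in KO. Hist1h1c had 96.0, 149 and 72.1 FPKM in these uninjected libraries, against 105, 86.7, 94.0 and 64.1 FPKM in KO. Neither gene separated the groups there.

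**Figure D3:**
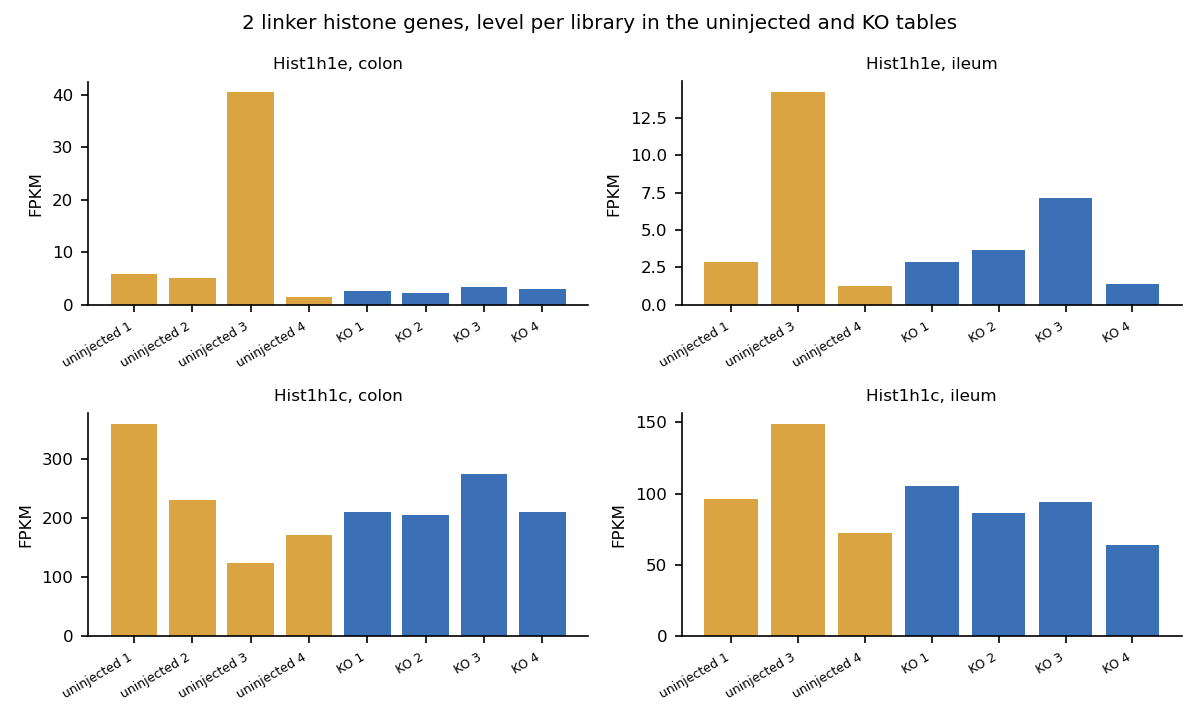
Level in FPKM of Hist1h1e (top, short end) and Hist1h1c (bottom, long end) in each library of the uninjected and KO tables of colon (left) and ileum (right); each bar is 1 library. Hist1h1e reaches 40.5 FPKM in colon uninjected 3, where Hist1h1c is at its lowest, 124 FPKM.

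The rest of the account compares the groups, each within the table that holds both, by limma on log2(FPKM + 0.5) over every gene that averaged 1 FPKM or more in the libraries compared, two-sided, with Benjamini-Hochberg adjustment over all of them and a threshold of 0.05. No clustered histone gene passed in any of the 6 comparisons or in the 3 tests of a difference between tissues. The smallest adjusted p-value was 0.0652, for Hist2h2be in treated against KO colon. KO libraries are shared by the comparisons of treated and of uninjected mice, so these are not independent of each other.

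Hist2h2be encodes H2BE, an H2B variant best known from olfactory neurons of mice. It was lower in every treated and uninjected library than in any KO library of the same table, in both tissues. In the colon it had 2.94, 1.92 and 2.72 FPKM in treated libraries 1, 2 and 4, against 6.68, 5.45, 5.82 and 6.59 FPKM in KO (means 2.53 ± 0.539, n = 3, and 6.13 ± 0.598, n = 4, SD). The log2 difference was -1.14 ± 0.19 (SE), with an unadjusted p of 0.000297 and an adjusted p of 0.0652 by limma. The groups lay apart, but the call was missed once all genes were counted.

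The other comparisons with KO gave Hist2h2be differences of like size. Uninjected colon libraries 1 to 4 had 2.95, 2.99, 1.56 and 3.74 FPKM, against 6.30, 5.14, 5.43 and 6.19 FPKM in KO, a log2 difference of -0.96 ± 0.26 (SE; adjusted p = 0.721 by limma). In the ileum, treated libraries 1, 2 and 4 had 0.941, 1.29 and 1.45 FPKM, against 2.58, 2.38, 2.79 and 3.35 FPKM in KO (-0.93 ± 0.26, adjusted p = 0.851 by limma). Uninjected ileum libraries 1, 3 and 4 had 1.34, 0.836 and 1.38 FPKM, against 2.48, 2.29, 2.66 and 3.17 FPKM in KO (-0.91 ± 0.26, adjusted p = 0.665 by limma). In none of these did the highest library of the transgenic mice reach the lowest of KO.

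Between treated and uninjected mice, Hist2h2be gave log2 differences of -0.17 ± 0.36 for colon and -0.01 ± 0.38 for ileum (SE; adjusted p = 1 for both by limma). No difference was detectable there. The values rest on 35 to 522 reads per library in the colon and 22 to 429 in the ileum. Among libraries that can be tied to a sample, the only uninjected colon library labelled male, of 10 weeks, had 3.74 FPKM. Uninjected 3, labelled female but with a male level of Ddx3y, had 1.56 FPKM. The male KO colon library of 9 weeks had 6.30 FPKM and those of 11 weeks had 5.14, 5.43 and 6.19 FPKM. With 1 uninjected library labelled male and the sex of another in doubt, the part of sex and age was not tested.

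Its neighbour Hist2h2ac, an H2A gene, had higher means in transgenic mice. In treated ileum it had 3.34, 2.41 and 1.73 FPKM, against 0.883, 0.607, 1.71 and 1.14 FPKM in KO, so the groups just failed to overlap (0.93 ± 0.33 on the log2 scale, unadjusted p = 0.0204, adjusted p = 0.939 by limma). In uninjected colon it had 6.26, 3.11, 10.6 and 1.47 FPKM, against 1.73, 1.06, 1.08 and 0.653 FPKM in KO, with 1 library overlapping (1.60 ± 0.50, unadjusted p = 0.00997, adjusted p = 0.721 by limma). Treated colon spanned 0.438 to 12.7 FPKM, against 0.695 to 1.83 FPKM in KO (1.08 ± 0.76, adjusted p = 0.798). These values come from 3 to 36 reads a library.

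**Figure D4:**
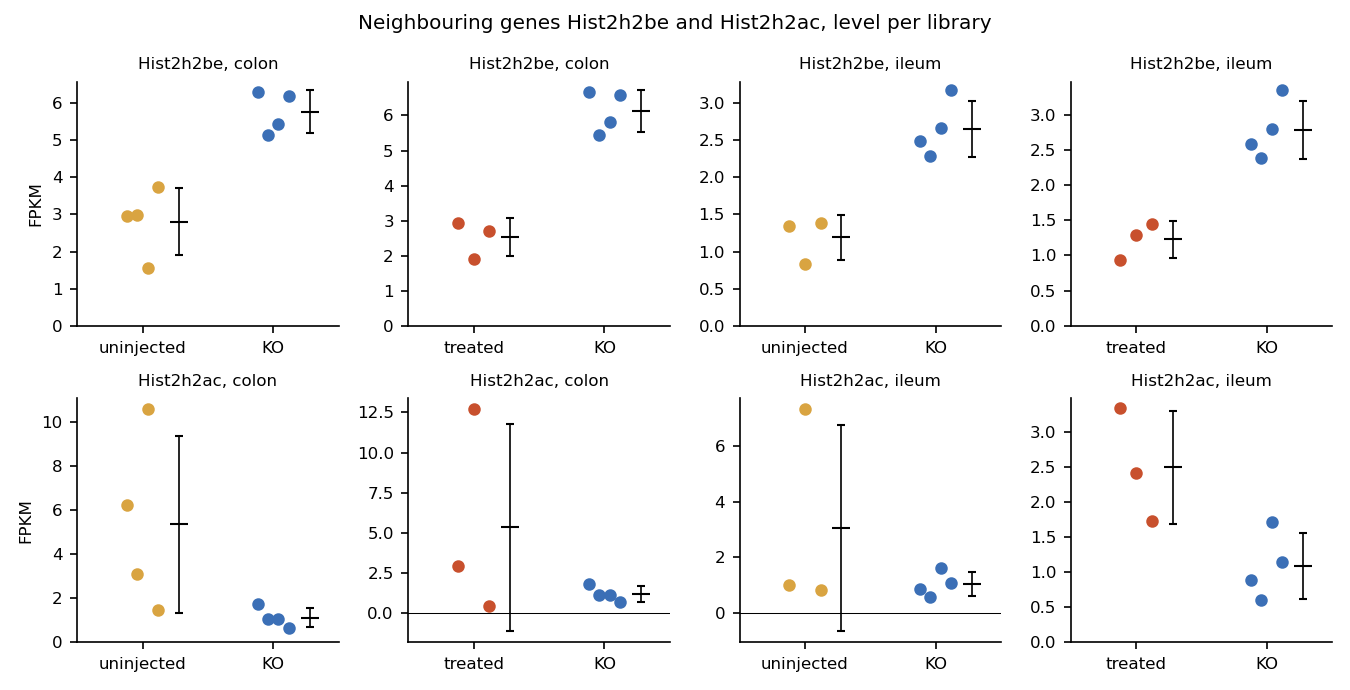
Level in FPKM of Hist2h2be (top) and Hist2h2ac (bottom) in each library of the 4 tables that hold KO; points are libraries and bars show mean ± SD. Hist2h2be lies below all KO libraries in every treated and uninjected library, while Hist2h2ac overlaps KO in all but the treated ileum.

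Treated against KO colon, the comparison with the most calls over all genes, called none of 50 histone genes tested, against 0.296% of 12505 genes (37). At an unadjusted p under 0.05 by limma there were 5 (10%), against 7.31% of all genes. All 5 were lower in treated mice, against 3.46% of all genes that were lower at this p, and limma's voom on recovered reads called none. Over all 61 genes, 40 were higher and 20 lower in treated mice and 1 was at 0. The median log2 difference of those tested was 0.329, beside -0.009 for all genes, and it was 0.47 over 35 genes with short ends and -0.25 over 10 with long ends.

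That median rests on 1 library. Without colon treated 2 it was -0.489, with 9 of 39 genes higher, so the sign turned. Without KO 2, a library high in acinar RNA, it was 0.194, with 31 of 50 higher. A total of 9 of the genes tested reached a mean of 1 FPKM in treated mice but not in KO. The count of higher genes and the medians are therefore no support for a change.

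The 5 genes lower in treated colon were led by Hist2h2be. Hist1h1c had 209, 143 and 121 FPKM in treated libraries, against 223, 219, 294 and 224 FPKM in KO, and the groups did not overlap (-0.63 ± 0.23, unadjusted p = 0.0243, adjusted p = 0.582 by limma). Hist3h2a, an H2A gene, had 25.5, 23.6 and 22.8 FPKM in treated libraries, against 26.6, 34.4, 33.4 and 35.2 FPKM in KO, again without overlap (-0.42 ± 0.16, adjusted p = 0.607 by limma). All 3 genes without overlap were lower in treated mice, and 3 of 50 (6%) compares with 3.89% of all genes that were lower without overlap and 8.04% without overlap in either direction.

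Another pair had overlapping groups. Hist1h2bh, an H2B gene, had 9.15, 5.86 and 3.53 FPKM in treated libraries, against 8.27, 11.3, 12.8 and 8.68 FPKM in KO (-0.76 ± 0.30, adjusted p = 0.652 by limma). Hist2h3c1, an H3 gene, had 2.19, 0 and 4.48 FPKM, against 2.74, 5.02, 11.9 and 9.11 FPKM in KO (-1.85 ± 0.77, adjusted p = 0.671 by limma). All 4 smooth muscle markers were also lower, with sums of 804 to 997 FPKM in treated libraries, against 1310 to 1790 FPKM in KO. All 6 epithelial markers were lower as well (median log2 difference -0.358, none called), with sums of 3960 to 6510 FPKM in treated libraries, against 5850 to 7150 FPKM in KO. The part of these markers in the histone values was not tested.

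Uninjected against KO colon had the largest median difference of the 6 comparisons. Over all 61 genes, 52 were higher and 8 lower in uninjected mice and 1 was at 0, and of the 51 tested 45 were higher, with a median log2 difference of 0.854 beside -0.007 for all genes. Limma called none of the 51, against 0.0804% of 12437 genes. At an unadjusted p under 0.05 there were 6 (11.8%), against 4.6% of all genes, and voom called none. Of these 6, Hist2h2bb and Hist1h3a reached a mean of 1 FPKM only in uninjected mice, so that they were tested only through the group where they were high, and nothing is read from the share. All 12 H4 genes were higher in uninjected mice (median 0.97), as were 12 of 13 H2A (0.92), 9 of 10 H3 (1.14), 9 of 12 H2B (0.62) and 3 of 4 H1 genes (0.50).

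Here too the size depended on a library. Without colon uninjected 3 the median was 0.423, with 36 of 46 genes higher, and without that library and KO 2, which held the most acinar RNA, it was 0.382. A total of 12 of the 51 genes reached 1 FPKM only in uninjected mice. The counts of higher genes and the medians, over all genes tested and by class, are therefore no support for a change. Summed S phase genes were 210, 377, 829 and 349 FPKM in uninjected libraries, against 357, 379, 331 and 433 FPKM in KO, and smooth muscle genes were 4350, 3090, 393 and 1270 FPKM, against 1240, 1630, 1670 and 1510 FPKM in KO. Their part in the histone values was not tested.

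Beside Hist2h2be, the genes with the smallest p-values in uninjected colon were low in KO. Hist2h2bb, an H2B gene without a stem-loop in the window, had 2.40, 3.79, 16.8 and 4.34 FPKM in uninjected libraries, against 1.32, 0, 0.564 and 0.598 FPKM in KO, with no overlap (2.48 ± 0.58, unadjusted p = 0.00173, adjusted p = 0.721 by limma). Hist1h2bj had 4.72, 3.84, 8.11 and 2.20 FPKM, against 3.21, 1.55, 1.98 and 1.02 FPKM in KO (1.05 ± 0.40). Hist2h2bb and Hist2h2be were the only genes of 51 whose groups did not overlap (3.92%), against 2.71% of all genes, and they differed in opposite directions. Since Hist2h2bb was tested only through its level in uninjected mice, nothing is read from that share either.

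The H3 gene Hist1h3a and the H2A gene Hist1h2ah were high in the same libraries. Hist1h3a had 3.05, 3.22, 5.43 and 0.435 FPKM in uninjected libraries, against 0.512, 1.88, 0.547 and 0.193 FPKM in KO (1.35 ± 0.59). Hist1h2ah had 3.53, 5.61, 14.3 and 0.545 FPKM, against 0.360, 0.881, 2.05 and 0.907 FPKM in KO (1.62 ± 0.71). In both, libraries 1 to 3 of the uninjected mice were above all KO libraries and library 4 was not, and the adjusted p by limma was 0.721. Other members did not share this: Hist2h3c1, an H3 gene, had 22.6, 6.20, 0 and 9.17 FPKM in uninjected libraries, against 2.59, 4.74, 11.1 and 8.57 FPKM in KO.

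The abundant genes with long ends differed less. Hist1h2bc had 585, 578, 410 and 390 FPKM in uninjected libraries, against 409, 387, 531 and 275 FPKM in KO (0.31 ± 0.27, adjusted p = 0.734 by limma), and Hist1h1c differed by -0.13 ± 0.32. Hist1h2ap had 419, 579 and 1670 FPKM in uninjected libraries 1 to 3 and was listed at 0 in library 4, against 355, 198 and 337 FPKM in KO libraries 1 to 3 and 0 in KO 4. Hist1h4n was listed at 0 in all 4 KO libraries and in uninjected 1 and 4, with 6.12 and 40.1 FPKM in uninjected 2 and 3. The 0 values of Hist1h2ap fall in the 2 colon libraries with number 4 of these groups, of 41.37 and 30.17 M reads. In the ileum, too, it had 0 reads in uninjected 4 and 78 in KO 4. Uninjected 1 and 3 had 1797 and 3962 reads there, KO 1 to 3 had 1937 to 2820, and treated 4 had 1403. The copy it shares its sequence with was not analysed here.

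Treated against uninjected colon called no gene at all, 0% of 12567 genes and none of 52 histone genes. At an unadjusted p under 0.05 by limma there were 143 genes (1.14%) and no histone gene, and voom called no histone gene. Over all 61, 8 were higher and 52 lower in treated mice and 1 was at 0. The median of those tested was -0.579 beside -0.008 for all genes, and all 12 H4 genes were lower (median -0.72).

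The groups overlapped for all 52 genes, against 1.37% of all genes whose groups did not. The H4 gene Hist1h4h had 10.3, 61.9 and 7.78 FPKM in treated libraries 1, 2 and 4, against 52.6, 33.9, 48.4 and 8.34 FPKM in uninjected ones (-0.75 ± 0.82, adjusted p = 1 by limma). Hist1h2bj had 2.43, 2.33 and 1.30 FPKM, against 4.77, 3.88, 8.12 and 2.21 FPKM in uninjected mice (-0.97 ± 0.43), the smallest unadjusted p of the group at 0.0524 by limma. The median was 0.033 without colon treated 4, the library with the lowest histone levels, and -1.24 without treated 2. Without uninjected 3, the library with the most acinar RNA, it was -0.118, with 20 of 52 genes higher. Of the 52 tested, Hist1h2bm reached a mean of 1 FPKM only in uninjected mice. The counts and medians are therefore no support for a change.

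**Figure D5:**
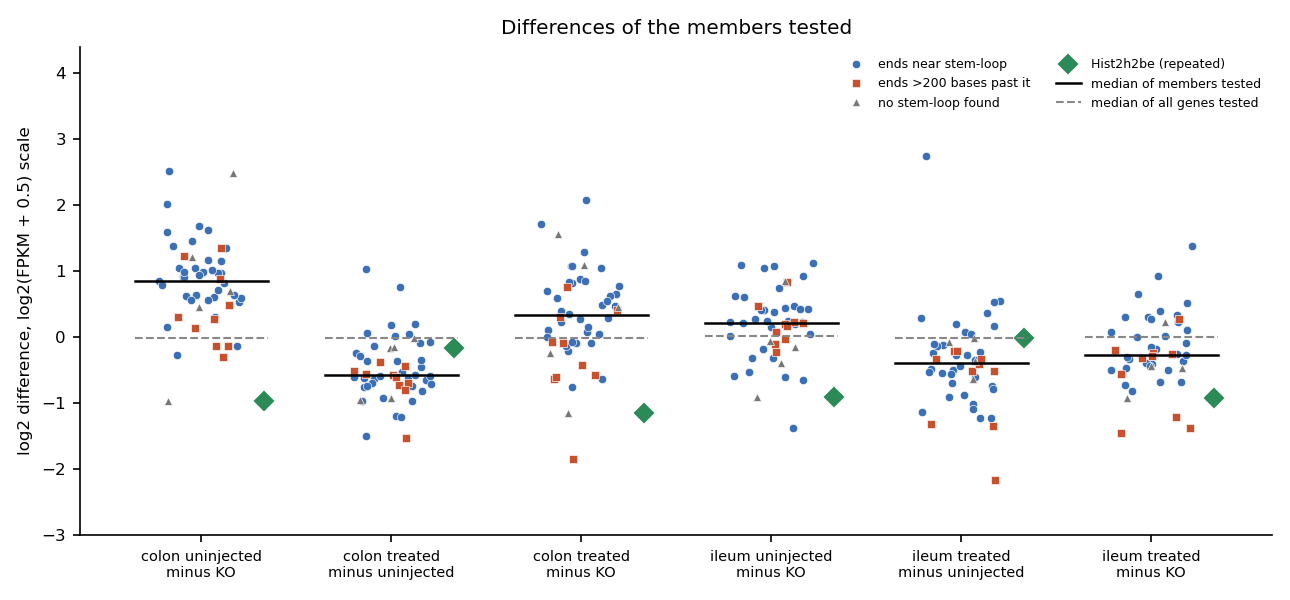
Log2 difference on the log2(FPKM + 0.5) scale of each histone gene tested in the 6 comparisons, by annotated end; solid lines give the median of these genes, dashed lines that of all genes tested, and diamonds repeat Hist2h2be. The median is 0.854 in uninjected minus KO colon and -0.579 in treated minus uninjected colon, and Hist2h2be lies near -1 in all 4 comparisons with KO.

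Treated against KO ileum called none of 47 histone genes, against 0.0835% of 11974 genes. At an unadjusted p under 0.05 by limma there were 2, Hist2h2be and Hist2h2ac (4.26%, against 3.65% of all genes), which were also the 2 whose groups did not overlap (4.26%, against 5% of all genes). Voom called none. Over all 61, 22 were higher and 38 lower in treated mice and 1 was at 0, and the median of those tested was -0.27. Without ileum treated 4 it was 0.213, with 32 of 48 higher, and without ileum treated 1 it was -0.542, with 8 of 45 higher. A total of 3 of the 47 genes tested reached a mean of 1 FPKM only in KO. The counts and medians are therefore no support for a change.

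Markers of other cells differed in level between these groups. The 3 ileal enterocyte markers summed to 6540 to 8360 FPKM in treated libraries, against 14700 to 37700 FPKM in KO, without overlap, and 2 of the 3 were lower. Of the 6 epithelial markers 5 were lower (median log2 difference -0.261), with overlapping sums of 5360 to 9080 FPKM in treated libraries and 6950 to 10300 FPKM in KO. All 7 acinar genes were higher (median 2.05), with sums of 26.9 to 574 FPKM in treated libraries, against 2.02 to 46.7 FPKM in KO. None of these markers was called by limma, and their part in the histone values was not tested.

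Individual genes overlapped widely in this table. Hist1h2bc had 279, 333 and 204 FPKM in treated libraries, against 395, 416, 603 and 242 FPKM in KO (-0.56 ± 0.35, adjusted p = 0.939 by limma). Hist1h3d, an H3 gene with a long end, had 5.02, 0 and 1.53 FPKM, against 2.96, 6.29, 7.91 and 2.27 FPKM in KO (-1.45 ± 0.74, adjusted p = 0.939 by limma). Hist1h2ap had 1070, 306 and 215 FPKM, against 364, 455, 608 and 5.93 FPKM in KO, where KO 4 stood far below the others.

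Uninjected against KO ileum called none of 49 histone genes, against 0.00846% of 11827 genes. At an unadjusted p under 0.05 by limma there were 2 (4.08%, against 5.42% of all genes), Hist2h2be and Hist2h2aa2, and voom called none. Hist2h2aa2 had 16.4, 39.9 and 14.4 FPKM in uninjected libraries, against 10.1, 11.8, 10.9 and 7.77 FPKM in KO (1.04 ± 0.37, adjusted p = 0.665 by limma). Hist1h2bh had 3.34, 5.51 and 5.89 FPKM, against 6.07, 8.26, 9.65 and 6.50 FPKM in KO (-0.60 ± 0.28, adjusted p = 0.665 by limma). With Hist2h2be these were the 3 genes whose groups did not overlap (6.12%, against 8.61% of all genes).

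Over all 61 genes, 40 were higher and 20 lower in uninjected ileum and 1 was at 0, with a median of 0.221 over the 49 tested. Of these 49, 2 reached a mean of 1 FPKM only in uninjected mice and 1 only in KO. Without ileum uninjected 3 the median was -0.216, with 11 of 43 higher. The H3 gene Hist1h3c shows that library, with 2.74, 18.7 and 3.77 FPKM in uninjected libraries 1, 3 and 4, against 4.87, 7.82, 9.53 and 2.79 FPKM in KO. The counts and medians are therefore no support for a change.

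Treated against uninjected ileum called no gene, 0% of 11815 genes and none of 48 histone genes. There were 97 genes at an unadjusted p under 0.05 by limma (0.821%), no histone gene was among them, and voom called none of the group. Over all 61, 12 were higher and 48 lower in treated mice and 1 was at 0, with a median of -0.389 over those tested. Of the 48 tested, 4 reached a mean of 1 FPKM only in uninjected mice and 1 only in treated mice. The groups overlapped for all 48, against 2.7% of all genes whose groups did not. Without ileum uninjected 3 the median was 0.016, with 23 of 44 higher, and without ileum treated 1 it was -0.725, with 5 of 47 higher. The counts and medians are therefore no support for a change. Ileal enterocyte markers summed to 5980 to 7820 FPKM in treated libraries, against 15200 to 36500 FPKM in uninjected ones, and their part in the histone values was not tested.

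The difference between tissues (effect in ileum less effect in colon) was tested in 1 limma fit that held both. No histone gene was called for treated minus KO (0 of 50, against 0.00803% of 12448 genes), uninjected minus KO (0 of 50, against 0.00809% of 12364) or treated minus uninjected (0 of 51, against 0% of 12437). None had an unadjusted p under 0.05 by limma, against 3.71%, 1.19% and 0.225% of all genes in that order, and voom called none. The histone medians were -0.54, -0.624 and 0.095, and with 1 library left out at a time they spanned -1.20 to 0.104, -1.17 to -0.168 and -0.328 to 0.907. Hist2h2be gave 0.22, 0.05 and 0.16 in that order, so its difference from KO was not shown to depend on the tissue.

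Genes that work beside the clustered histones gave no calls either. Of 11 histone variants outside the clusters, 10 had higher values in treated than in KO colon and 10 in uninjected than in KO colon (medians 0.275 and 0.284), with the linker variant H1fx at 1.60 in uninjected colon and the centromeric H3 variant Cenpa at 0.69 in treated colon (adjusted p = 0.721 and 0.595 by limma). All 9 histone chaperones had higher values in treated than in KO colon (median 0.269), among them Daxx at 0.41 (adjusted p = 0.691 by limma). Of 13 genes of histone mRNA processing and transcription tested there, 5 were higher and 8 lower (median -0.059).

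The S phase and cell division list had 19 of 21 genes higher in treated than in KO colon (median 0.368), against 6131 of all 12505 genes tested. Cyclin A2, Ccna2, led it at 0.54 (adjusted p = 0.679 by limma). Its genes summed to 485, 715 and 349 FPKM in treated libraries 1, 2 and 4, against 355 to 461 FPKM in KO. Treated 2 was thus above and treated 4 below every KO library. The list had 13 of 21 higher in uninjected than in KO colon (median 0.134), where the histone median was 0.854. In the ileum it had 14 of 21 higher in treated mice (0.066) and 8 of 21 higher in uninjected mice (-0.096) than in KO, and the proliferation marker Mki67 stood at -0.94 in uninjected ileum (adjusted p = 0.665 by limma). Between treated and uninjected mice 15 of 21 were higher in treated colon (0.17) and 18 of 21 in treated ileum (0.18), while the histone medians there were below 0.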

How the data were processed

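The authors deposited FPKM per gene in 6 tables, each with 2 groups of 1 tissue, 1 column per library. Libraries were poly(A)-selected and mapped in CLC Genomics Workbench, as the labels' protocols say. DESeq2, DESeq 1.14.0, kallisto 0.45.0 and the build mm9 appear in the submitters' processing notes without roles. Annotation and filters upstream: not given in the sources used here. The design text counts 3 uninjected and 4 treated colon samples, but 4 and 3 stand in labels and columns and were used. A library differed between tables of its tissue by a constant factor (0.9893 to 1.0721 in the colon, 1.0207 to 1.0928 in the ileum), so groups were compared only within a table.

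The histone genes and gene lists were chosen with earlier results of these data known. Each comparison was fitted with limma 3.58.1 in R 4.3.3, with an intensity trend, on log2(FPKM + 0.5) over all genes averaging 1 FPKM or more; this scale understates changes of low genes. Named histone genes are the up to 4 most abundant of each class, up to 3 per direction and comparison with the smallest p, and any called; genes of libraries that stand apart were named after their values were seen. Whole reads were recovered for 85.23% of 18779 colon genes and 85.19% of 18255 ileum genes above 0 (tolerance 0.01 read), including 59 of the 61 histone genes, and served for depth and for voom only. Alternatives were pseudocounts of 0.1 and 1, no filter, quantile normalization, removal of a GC and length trend, a replicate block, voom, and leaving out libraries. Same-numbered libraries were checked for shared deviations, and in treated and KO ileum all 3 correlations were over 0.1 (0.113 to 0.505). Differently numbered libraries there reached 0.239 (treated 2 with KO 3), and no label pairs them. The reported fits used no pairing, and the replicate block was run only as an alternative. No 2 libraries had identical values. Fits were tested on simulated data. An added 2-fold change was called in 36% of cases in treated minus KO colon and in 0.8% in treated minus uninjected ileum. These were the highest and lowest shares of all fits. For a 4-fold change the shares in these 2 comparisons were 84% and 28.4%. Stem-loops and ends came from the mm9 annotation, and promoters from RefSeq (55 of 61 genes matched). Tables used Python 3.11.15, pandas 2.3.3 and numpy 2.4.6, and plots matplotlib 3.10.9.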

Additional observations from a re-analysis of the deposited data

Results flagged for a closer look

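In groups of 4 libraries, a library was marked when its gap to the nearest other exceeded Dixon's critical share of the group's range. With normally distributed values chance does so in about 1 of 20 groups. FPKM were screened without a log, so that rate may not hold here. Every histone gene tested was screened in uninjected colon, KO colon and KO ileum, 150 groups of 4 in all, and 14 were marked. Genes share the same libraries, so these groups are not independent. Colon uninjected 3 was marked for 11 of 51 genes, as the highest library each time: Hist1h1b at 10.1 FPKM, Hist1h1e at 40.5, Hist1h2bf at 4.73, Hist1h2bn at 11.3, Hist1h3b at 17.6, Hist1h3h at 20.9, Hist1h4a at 8.57, Hist1h4c at 20.6, Hist1h4k at 15.7, Hist1h4n at 40.1 and Hist2h2bb at 16.8 FPKM. The same library held the most acinar RNA and is labelled female with male levels of Ddx3y, and what these have to do with its histone levels was not tested. Colon KO 3 was the highest KO library for Hist1h1c at 274 FPKM, and for the summed H1 genes at 282 FPKM, of which Hist1h1c is the main part. Ileum KO 3 was the highest KO library for Hist1h3b at 9.39 FPKM and Hist1h3i at 3.47 FPKM.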

How the results depend on the processing

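The number of histone genes called stayed at 0 in 159 of 161 combinations of a fit and another setting. The exceptions were treated minus KO colon with the GC content and length trend removed, which called 1 (Hist2h2be, -1.16, adjusted p = 0.0266 by limma), and treated minus uninjected ileum with the replicate block, which called 1 (Hist1h2ap, 5.27, adjusted p = 2.28e-13 by limma). That block rests on 2 shared numbers, with correlations of -0.396 and 0.656 between same-numbered libraries, and it called 34 genes in all against 0 without it. Among differently numbered libraries of these groups, treated 1 and uninjected 3 had a higher correlation, 0.736. Elsewhere the block changed no call of a histone gene. In the colon and in uninjected and KO ileum at least 1 same-numbered correlation was under 0.1. Yet uninjected 4 and KO 4 shared deviations, with a correlation of 0.671 in the colon and 0.591 in the ileum. The labels do not say what the numbers stand for. Hist2h2be stayed negative against KO in every setting run, between -1.26 and -0.99 in treated colon (adjusted p 0.0266 to 0.256), while the median over the histone genes turned sign without 1 library in 5 of the 6 comparisons, as given above, and in uninjected minus KO colon it lay between 0.182 and 1.36 under all settings. Counts of all genes called ranged from 17 to 66 in treated minus KO colon (37 as reported), from 2 to 68 in uninjected minus KO colon (10), from 3 to 14 in treated minus KO ileum (10) and from 0 to 5 in uninjected minus KO ileum (1). For the 15 results with an unadjusted p under 0.05 by limma, 239 of 240 settings kept the direction and the side of the adjusted threshold. All 15 began uncalled, so keeping that side says little about how firm they are. The size moved more: Hist1h2bj in uninjected minus KO colon lay between 0.297 and 1.33 (1.05 as reported). Poly(A) selection, reads shared between gene copies and low read numbers limit what these values show; a difference that was not called is not shown to be absent.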
